A study of Homo sapiens with 45 samples.

Results

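Messenger RNA of 10 genes of the NRF2 and redox system was examined in HAP1 cells of 6 genotypes. The genes were NQO1, ME1, TXNRD1, HMOX1, FTL, FTH1, PRDX1, TALDO1, PGD and OSGIN1, taken by symbol from a count table of 60676 genes in which each symbol named 1 row. All 10 passed the filter on low counts and were among the 11078 genes tested. HMOX1 and OSGIN1 did so with few reads, at 0 to 19 and 0 to 37 counts per library, whereas the other 8 genes had 7 or more counts in every library.

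HAP1 is an established human line, a near-haploid derivative of KBM-7, and every library came from it. The reference line is labelled AAVS1, the name of a safe-harbour locus used for control edits. The other lines were knockouts (KO) of RNF25, of GCN2 and of ZNF598, a double knockout (DKO) of RNF25 and GCN2, and eS31 K113R, which is labelled with a lysine substitution in a ribosomal protein. RNF25 and ZNF598 attach ubiquitin when ribosomes stall. GCN2, coded by EIF2AK4, is a kinase that senses uncharged tRNA and stalled ribosomes and starts the integrated stress response. All 6 lines were sampled untreated and after 4 h in 5 uM azacytidine (azaC), a cytidine analogue that enters RNA and DNA. AAVS1, RNF25 KO and GCN2 KO cells were also sampled after 4 h in 25 nM halofuginone (HF), which blocks the charging of prolyl-tRNA and thereby switches GCN2 on. The series title concerns RNF25, mRNA damage by azaC and the integrated stress response, so the untreated comparisons ask what each edit alone did and the drug comparisons ask how that changed the response. Each of the 15 groups held 3 libraries called biological replicates, with nothing on how the cultures were separated, so p-values measure the spread between these libraries. Whether an edited line was 1 clone or several is not given in the sources used here. A difference between lines therefore cannot be told apart from a difference between clones, and in bulk RNA fewer expressing cells cannot be told apart from less RNA per cell.

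NRF2 (gene NFE2L2) is a transcription factor that the adaptor KEAP1 marks for degradation in unstressed cells. When electrophiles or oxidants modify KEAP1, NRF2 accumulates, pairs with small MAF proteins and binds antioxidant response elements near genes for quinone reduction, thioredoxin, iron storage and NADPH supply. NQO1 is a widely used readout of this pathway, while several of the other genes are also controlled by iron, haem, nutrient or stress signals.

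The core of the antioxidant response element is written TGACNNNGC, where N is any base. It was searched on both strands in RefSeq windows of GRCh38.p14 that reach from 250 bases before to 50 bases after a transcript start. Of 35116 windows in the genome, 4687 (13.3%) held it. For 7 of the 10 genes 8 windows were found, and 4 of these windows held it. They belong to 3 of the genes, ME1, TXNRD1 and PGD. Whether this share differs from that of the genome was not tested. The matches that lie wholly before the start are shown in capitals, read along the strand of the gene, because ME1 is among the genes the results turn on and TXNRD1 and PGD hold the same core letters.
ME1, 137 bases before the start, chr6:83431165-83431203, minus strand: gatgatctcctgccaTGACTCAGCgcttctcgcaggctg
TXNRD1, 99 bases before the start, chr12:104215665-104215703, plus strand: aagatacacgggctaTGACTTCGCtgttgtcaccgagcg
TXNRD1 second start, 102 bases before it, chr12:104286915-104286953, plus strand, motif on the opposite strand: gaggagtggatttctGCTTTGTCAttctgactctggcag
PGD, 201 bases before the start, chr1:10398848-10398886, plus strand, motif on the opposite strand: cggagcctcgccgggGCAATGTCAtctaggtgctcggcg
A match is a description of the letters and not a shown binding site. The starts used here are those of RefSeq. The span given for PGD below is from another annotation, GENCODE, and begins at chr1:10398592, so the PGD match lies inside that span. The windows of NQO1, FTL, TALDO1 and OSGIN1 did not hold these letters, which says nothing about elements outside the windows.

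Depth was between 1135498 and 2478875 counts in a library (median 1541554). In the libraries labelled as edited in it, EIF2AK4 was at 14.1 to 47.8 CPM, the counts scaled to a common library size,, against 28.8 to 64.8 CPM in the others. ZNF598 was at 30.5 to 47.5 CPM in ZNF598 KO libraries and at 55.9 to 125 CPM elsewhere. RNF25 was at 0 to 2.49 CPM where labelled knocked out and at 0 to 4.96 CPM elsewhere, too low to check that label. None of 12 haematopoietic markers passed the filter, their summed level was 0 to 3.25 CPM, and GATA1, MPO, CD33, ITGAM and HBG1 had no count. Of 7 epithelial markers only KRT18 passed (18.5 to 74.2 CPM over the list), and of 6 fibroblast markers only COL1A1 (3.78 to 27.8 CPM over the list). AAVS1 untreated replicate 2 stood apart in base composition, with a slope of -0.46 log2 per 10% GC content, and RNF25 KO azaC replicate 2 stood apart the other way at 0.35. Mitochondrial genes held 3.14% of that second library, the lowest share, with 7.08% as the median. For eS31 K113R untreated replicates 2 and 3 the title and genotype read eS32 K223R, while the described data column reads eS31 K113R. They were placed by the column.

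Levels in CPM are given on TMM-scaled library sizes. In untreated AAVS1 cells, per kilobase of exon, PRDX1 was the most abundant of the 10 at 625 CPM per kb. FTL followed at 228, FTH1 at 146, TALDO1 at 58.0, PGD at 20.2, ME1 at 18.4, NQO1 at 9.71, TXNRD1 at 4.13, HMOX1 at 1.80 and OSGIN1 at 0.207 CPM per kb. Across the untreated lines 3 of the 10 genes differed, NQO1, ME1 and FTL, in a test of any difference among the 6 lines with edgeR's quasi-likelihood test. Over all tested genes 6.16% passed that test. NQO1 had an adjusted p of 9.86e-12, ME1 of 2.27e-09 and FTL of 0.000553. The adjusted p of the other 7 ran from 0.265 for FTH1 to 1 for PGD, and the cultures with the same replicate number moved together in untreated cells, so a fit with the replicate number as a block was also made. In that fit FTH1 passed as well, at an adjusted p of 0.0338. The share of all tested genes that passed in it is not given here. The blocked fit held all 45 libraries, treated ones included. Over all groups, correlations were over 0.1 for every replicate number in 41 of 105 pairs of groups.

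**Figure D1:**
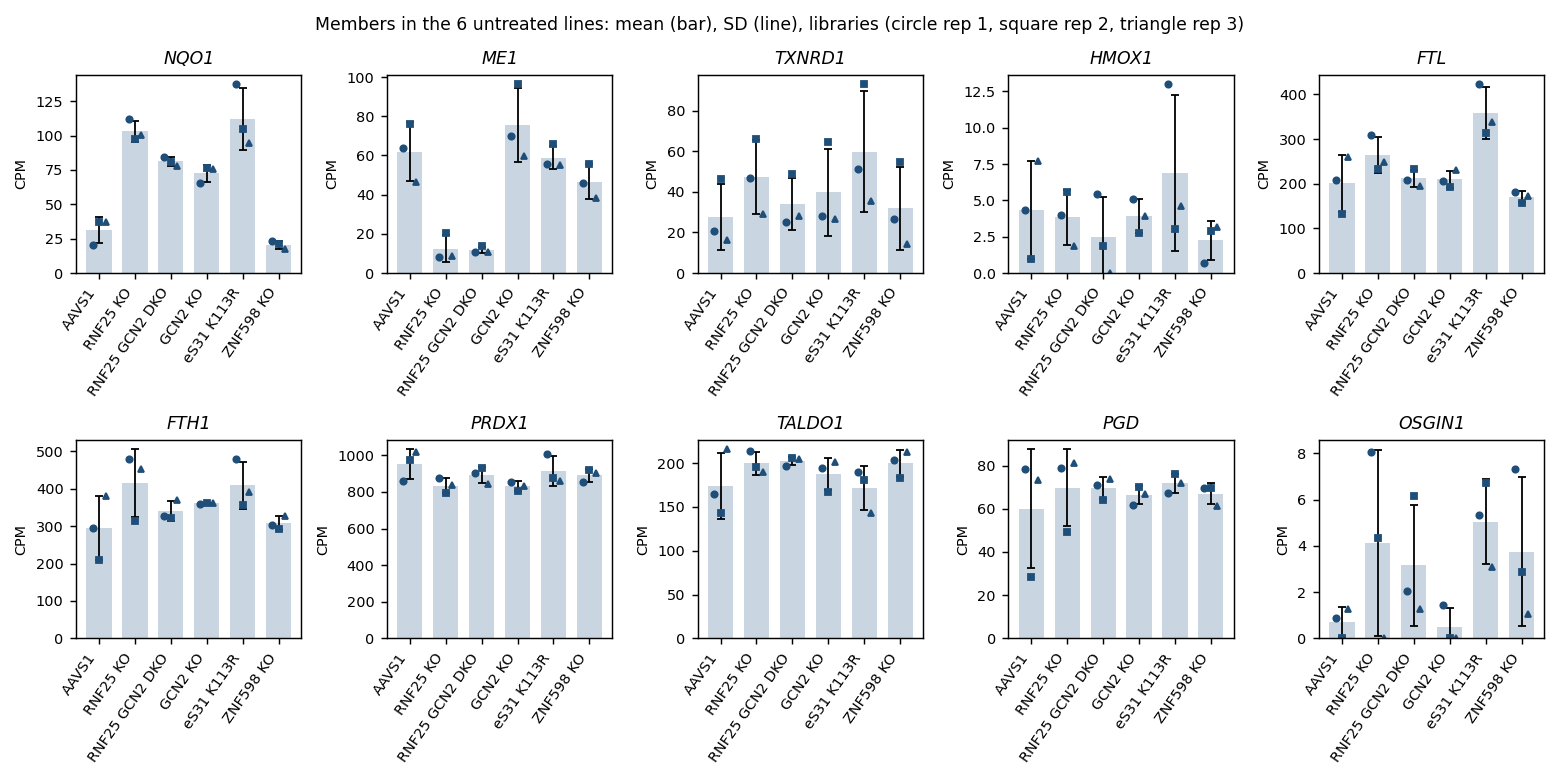
Level of each of the 10 genes in the 6 untreated lines, in CPM on axes that start at 0. Bars are means of 3 libraries, lines are SD, and symbols are the single libraries. NQO1 was high in RNF25 KO, the DKO, GCN2 KO and eS31 K113R, ME1 was low in RNF25 KO and the DKO, and FTL was high in eS31 K113R.

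The 5 comparisons with untreated AAVS1 share its 3 libraries. In RNF25 KO cells 2 of the 10 genes passed, NQO1 higher and ME1 lower, against 1.62% of all tested genes. In GCN2 KO cells 1 passed, NQO1 higher, against 1.05%. In the DKO 2 passed, again NQO1 higher and ME1 lower, against 1.42%. In eS31 K113R 2 passed, NQO1 and FTL higher, against 2.87%. In ZNF598 KO 0 passed in edgeR, DESeq2 and limma-voom, against 0.93%. An unadjusted p under 0.05 was reached there by 2 of the 10 and by 988 of the 11078 tested genes. It was reached by 5 of the 10 in RNF25 KO (1076 of all tested), 1 in GCN2 KO (1061), 2 in the DKO (1017) and 5 in eS31 K113R (1306). The median log2 fold change of the 10 genes was 0.32 in RNF25 KO, 0.14 in GCN2 KO, 0.21 in the DKO, -0.01 in ZNF598 KO and 0.57 in eS31 K113R. The median over all tested genes lay within 0.01 of 0 in the first 4 and was 0.01 in eS31 K113R.

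NQO1 codes for a quinone reductase that uses NADPH or NADH, and lies at chr16:69706996-69726951 on the minus strand (GRCh38), with 17.7% of its exon length under exons of the opposite strand. In untreated AAVS1 cells it stood at 20.7, 36.9 and 37.2 CPM in replicates 1, 2 and 3. In RNF25 KO cells it stood at 112, 97.6 and 100.3 CPM. In eS31 K113R cells the values were 138, 105 and 94.4 CPM. Every library of both lines was above every AAVS1 library. NQO1 was 3.20-fold higher in RNF25 KO (log2 fold change 1.68 ± 0.21 SE, adjusted p = 6.66e-07 by edgeR). In eS31 K113R it was 3.48-fold higher (1.80 ± 0.21, adjusted p = 1.53e-07 by edgeR).

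In the DKO NQO1 was at 84.7, 81.0 and 78.1 CPM, a narrow range that lay below RNF25 KO and above AAVS1. The rise over AAVS1 was 2.52-fold (1.33 ± 0.21, adjusted p = 5.09e-05 by edgeR). GCN2 KO libraries held 65.4, 76.4 and 75.5 CPM, 2.25-fold above AAVS1 (1.17 ± 0.22, adjusted p = 0.0011 by edgeR). When only the 6 libraries of 2 lines were fitted, the rise no longer passed in GCN2 KO (adjusted p = 0.211 by edgeR) or in the DKO (0.0674), although the fold changes hardly moved, at 1.19 and 1.35 on the log2 scale. Without AAVS1 replicate 2, the library apart in GC content, the log2 rise was 1.81 in RNF25 KO, 1.29 in GCN2 KO, 1.46 in the DKO and 1.93 in eS31 K113R, and all 4 passed. With eS31 K113R replicate 1 alone, the one library whose labels all read eS31 K113R, it was 2.10 (adjusted p = 3.66e-06 by edgeR), a p that assumes this lone library to vary like the other groups.

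ZNF598 KO cells had the lowest NQO1 of the 6 lines, at 23.3, 21.3 and 17.5 CPM. These overlap AAVS1 replicate 1, and the difference from AAVS1 did not pass (-0.64 ± 0.24, adjusted p = 0.284 by edgeR). Against every other edited line the difference passed. Of the 10 genes 1 passed between GCN2 KO and ZNF598 KO, against 1.48% of all tested genes, 2 for the DKO, against 1.38%, 2 for RNF25 KO, against 1.68%, and 2 for eS31 K113R, against 2.64%. NQO1 was higher than in ZNF598 KO by 1.81 ± 0.23 on the log2 scale in GCN2 KO (adjusted p = 4.51e-07 by edgeR), by 1.98 ± 0.22 in the DKO (3.09e-08), by 2.32 ± 0.22 in RNF25 KO (5.61e-10) and by 2.44 ± 0.22 in eS31 K113R (1.12e-10). Among the 4 lines with high NQO1 no pair differed past the threshold in NQO1. The order by mean level was eS31 K113R (112 ± 22.5 CPM), RNF25 KO (103 ± 7.60), the DKO (81.3 ± 3.31), GCN2 KO (72.4 ± 6.12), AAVS1 (31.6 ± 9.49) and ZNF598 KO (20.7 ± 2.94), each as mean ± SD over 3 libraries.

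The libraries of a line were also set side by side whatever the treatment, as a description without a test. They are not replicates of 1 condition. No drug comparison passed for NQO1, which with 3 libraries per group does not show that a response was absent. Over the 9 AAVS1 libraries, untreated, azaC and HF, NQO1 ran from 20.7 to 46.6 CPM with a median of 37.4. All 9 RNF25 KO libraries were above that range, at 81.3 to 143 CPM. So were the 6 libraries of the DKO (71.7 to 88.6 CPM) and the 6 of eS31 K113R (93.7 to 138 CPM). Of 9 GCN2 KO libraries 8 were above it, the exception being HF replicate 1 at 43.9 CPM. The 6 ZNF598 KO libraries ran from 17.5 to 31.6 CPM and overlapped the lower part of the AAVS1 range.

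ME1 codes for the cytosolic malic enzyme, which makes NADPH while turning malate into pyruvate, and lies at chr6:83210389-83431071 on the minus strand. In untreated AAVS1 cells it stood at 63.7, 75.8 and 46.2 CPM. RNF25 KO libraries held 8.05, 20.5 and 8.72 CPM. DKO libraries held 10.9, 13.7 and 10.8 CPM. The lowest AAVS1 value was above the highest value of either line, so neither overlapped AAVS1. ME1 was 4.89-fold lower in RNF25 KO (log2 fold change -2.29 ± 0.32, adjusted p = 3.56e-06 by edgeR). It was 5.18-fold lower in the DKO (-2.37 ± 0.32, adjusted p = 1.18e-06 by edgeR). Without AAVS1 replicate 2 the values were -2.10 and -2.18, and both passed.

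In the other 3 edited lines ME1 did not pass against AAVS1. GCN2 KO libraries held 69.8, 96.4 and 59.9 CPM (0.27 ± 0.28, adjusted p = 0.863 by edgeR). In eS31 K113R the values were 55.8, 65.8 and 55.2 CPM (-0.07 ± 0.28, 0.97). ZNF598 KO libraries were lower on average, at 45.9, 55.8 and 38.1 CPM, and 1 of them lay inside the AAVS1 range (-0.42 ± 0.28, 0.739). Low ME1 thus occurred in both lines labelled without RNF25, and ME1 differed past the threshold between each of these and each of GCN2 KO, ZNF598 KO and eS31 K113R. In the pairs not yet described, 1 of the 10 genes passed between RNF25 KO and GCN2 KO, against 2.05% of all tested genes, 1 between RNF25 KO and eS31 K113R, against 3.3%, 1 between GCN2 KO and the DKO, against 1.75%, and 2 between the DKO and eS31 K113R, against 3.12%. The log2 difference of RNF25 KO was -2.56 ± 0.32 from GCN2 KO (adjusted p = 7.04e-07 by edgeR), -1.87 ± 0.32 from ZNF598 KO (0.000167) and -2.22 ± 0.32 from eS31 K113R (8.62e-06). That of the DKO was -2.30 ± 0.32 from eS31 K113R (3.13e-06) and -1.96 ± 0.32 from ZNF598 KO (7.31e-05), and GCN2 KO was higher than the DKO by 2.65 ± 0.32 (2.12e-07).

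Between RNF25 KO and the DKO themselves ME1 differed by 0.08 ± 0.36 on the log2 scale, and 0 of all tested genes passed in that pair, while 325 had an unadjusted p under 0.05. Whether these lines share a parent clone was not tested, so they are not counted as independent occurrences of low ME1. Over all 9 RNF25 KO libraries, treated ones included, ME1 ran from 8.05 to 30.4 CPM, and over the 6 DKO libraries from 4.92 to 14.7 CPM. All 15 were below the lowest of 9 AAVS1 libraries, 42.3 CPM. NQO1 and ME1 therefore differed in opposite directions in the lines labelled without RNF25, and in GCN2 KO and eS31 K113R NQO1 was high while ME1 was not low.

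**Figure D2:**
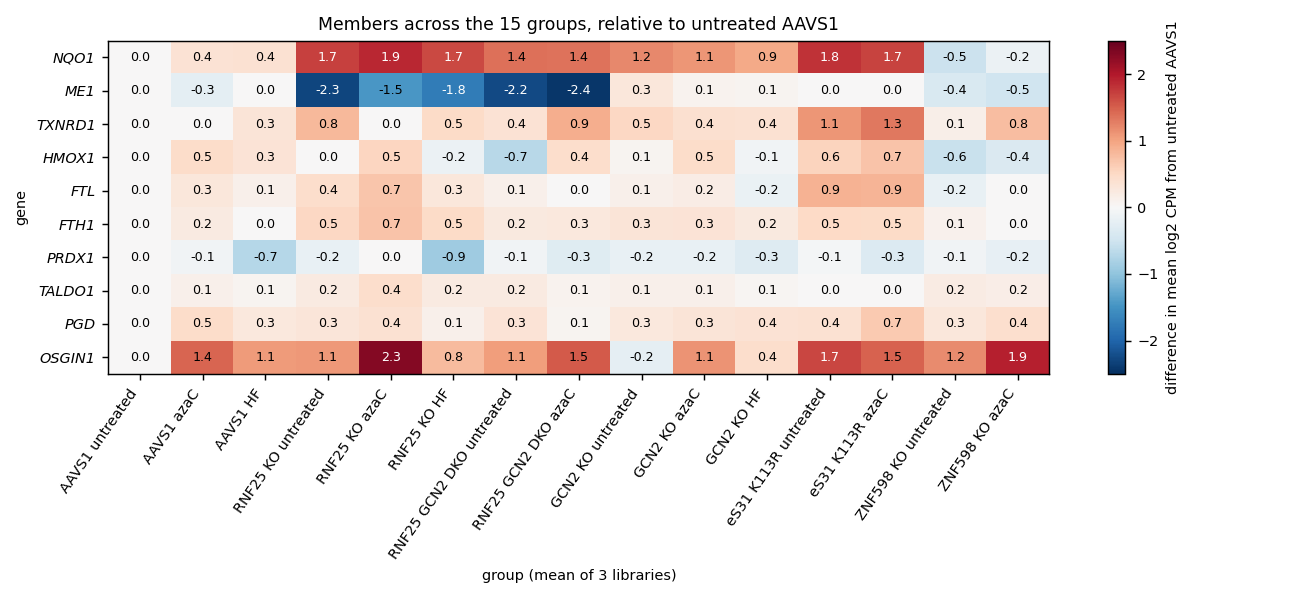
Mean log2 CPM of the 10 genes in each of the 15 groups minus that in untreated AAVS1, red for higher and blue for lower, with the value in each cell. The NQO1 and ME1 rows change with the line and little with the drug, and PRDX1 is lowest in the HF groups of AAVS1 and RNF25 KO. HMOX1 and OSGIN1 rest on few counts.

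To see whether these differences were shared by surrounding genes, the tested genes within 5 Mb of each start were compared in the same fits. Around NQO1 there were 81 such genes. In RNF25 KO 80 of them had a lower log2 fold change than NQO1, in GCN2 KO and the DKO 79, and in eS31 K113R all 81. Of these 81 genes, 2 were called higher and 0 lower in RNF25 KO, against 1.62% of all tested genes called in either direction. In the DKO 1 was called higher and 0 lower, against 1.42%. In GCN2 KO 0 were called, against 1.05%, and in eS31 K113R 0 were called higher and 1 lower, against 2.87%. On the log2 scale relative to untreated AAVS1, the median of all tested genes was 0.03 to 0.04 in the untreated edited lines. The median level of these 81 neighbours on that scale was between 0.03 and 0.08 in RNF25 KO, GCN2 KO, the DKO and eS31 K113R. With a window of 10 Mb it was 0.12 in RNF25 KO and 0.20 in the DKO, and the plot of neighbours shows a run of genes above 0 towards the end of the chromosome in RNF25 KO. Its part in the NQO1 level was not tested. In ZNF598 KO the median of the neighbours within 5 Mb was -0.26 ± 0.06 (mean ± SD, 3 libraries), and NQO1 itself was at -0.55 ± 0.20 on that scale. There 67 of the 81 neighbours had a negative fold change, 4 were called lower and 0 higher, against 0.93% of all tested genes. OSGIN1, further along the same chromosome at chr16:83948282-83966332, had 41 neighbours with a median of -0.25 ± 0.03 in ZNF598 KO. The part of these neighbours in the NQO1 level of ZNF598 KO was not tested. Around ME1 there were 27 tested genes, 0 of which were called in RNF25 KO or the DKO, against 1.62% and 1.42% of all tested genes. All 27 had a higher fold change than ME1 in both lines, and their median level relative to AAVS1 was 0.02 ± 0.13 in RNF25 KO and 0.05 ± 0.13 in the DKO. NQO1 and ME1 were singled out for their large differences, so most genes anywhere would lie on the same side of them. The counts of neighbours above or below them were thus close to fixed in advance, and nothing is read from those counts.

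**Figure D3:**
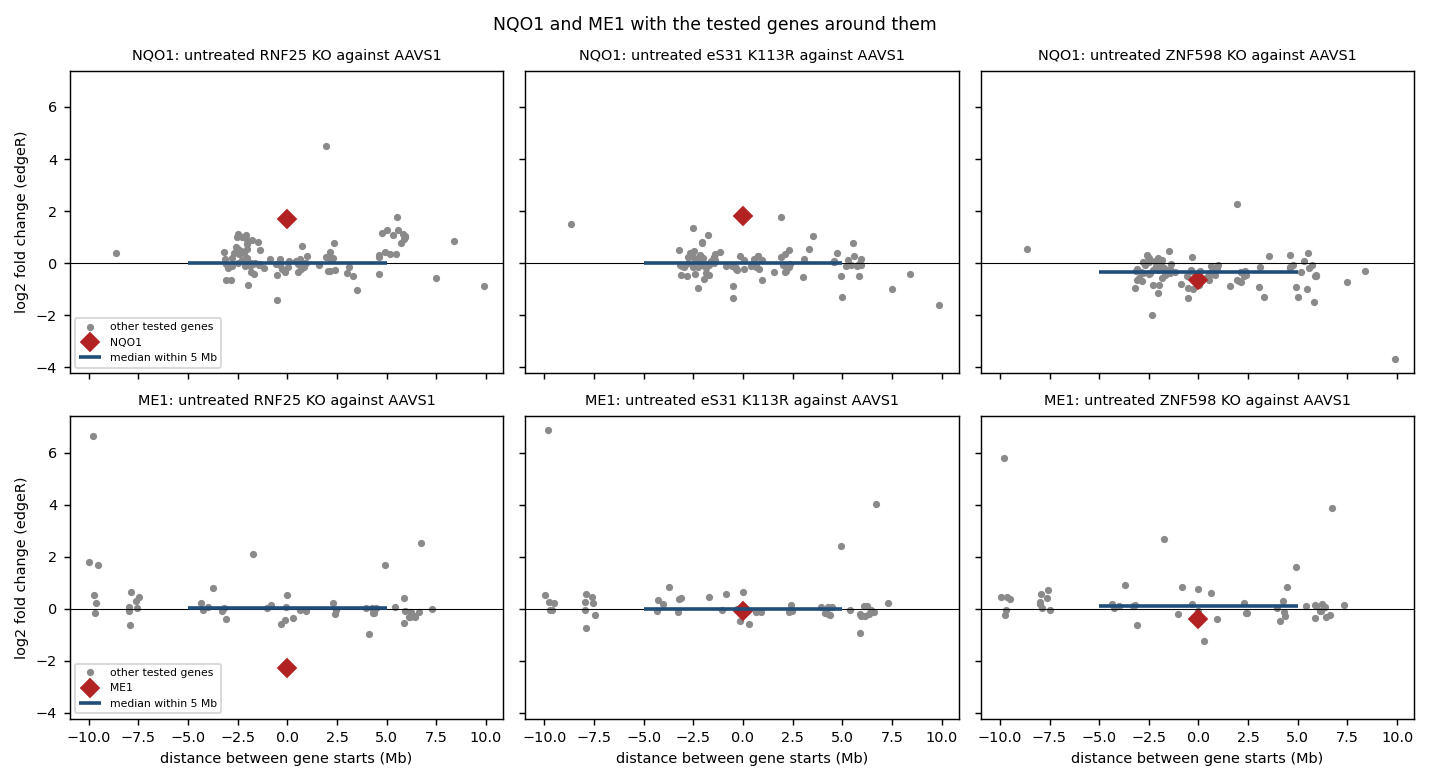
Log2 fold change against untreated AAVS1 for NQO1 (top) and ME1 (bottom) and the tested genes around them, by distance between gene starts in Mb, in 3 of the lines. Diamonds mark NQO1 or ME1, grey points the other genes, and the horizontal line the median within 5 Mb. The line lies below 0 around NQO1 in ZNF598 KO and closer to 0 in the other panels. In RNF25 KO a run of genes about 5 Mb to the right of NQO1 lies above 0.

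FTL and FTH1 code for the light and heavy chains of ferritin, the cytosolic iron store, and are also controlled by iron at translation. FTL lies at chr19:48965301-48966878 on the plus strand. In untreated AAVS1 cells it stood at 208, 133 and 261 CPM. In eS31 K113R it stood at 423, 313 and 338 CPM, above every library of AAVS1. FTL was 1.79-fold higher there (log2 fold change 0.84 ± 0.19, adjusted p = 0.00438 by edgeR). This rise lost its call without AAVS1 replicate 2 (0.61 ± 0.19, adjusted p = 0.10 by edgeR) and without eS31 K113R replicate 1 (0.69 ± 0.21, 0.0744). It also lost it when only the 2 lines were fitted (0.84 ± 0.26, 0.299). AAVS1 replicate 2 held the lowest FTL, FTH1, TALDO1 and PGD of all 45 libraries.

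FTL in eS31 K113R was also compared with the other edited lines, in pairs that share the same eS31 K113R libraries. FTL was lower than in eS31 K113R, with log2 differences of -1.07 ± 0.19 in ZNF598 KO (adjusted p = 0.000199 by edgeR), -0.75 ± 0.19 in the DKO (0.0117) and -0.76 ± 0.19 in GCN2 KO (0.0293), a pair in which 1 of the 10 genes passed, against 0.867% of all tested genes. The first of these passed in every alternative tried, the second lost its call in 3 of 16 and the third in 7 of 16. Leaving out eS31 K113R replicate 1 was among the settings that lost the second and the third. Between RNF25 KO and eS31 K113R FTL did not pass. RNF25 KO was second in the order of means, at 309, 233 and 248 CPM, and its difference from AAVS1 did not pass (0.40 ± 0.19, adjusted p = 0.483 by edgeR). With the replicate block RNF25 KO was above ZNF598 KO (0.62 ± 0.18, adjusted p = 0.0385 by edgeR), which it was not in the fit without the block (0.63 ± 0.19, 0.0896). Over untreated and treated cells together, the 6 eS31 K113R libraries, at 313 to 423 CPM, were all above the highest of 9 AAVS1 libraries, 261 CPM, as were 4 of 9 RNF25 KO libraries. The 132 tested genes within 5 Mb of FTL had a median level of 0.25 ± 0.09 relative to AAVS1 in eS31 K113R and of 0.18 to 0.21 in the other 4 lines, and in AAVS1 replicate 2 it was -0.29. In eS31 K113R 14 of them had a higher fold change than FTL.

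FTH1 lies at chr11:61959718-61967660 on the minus strand, and 62.4% of its exon length is overlapped by antisense exons. The sources used here do not say whether the counting used strand. AAVS1 libraries held 296, 209 and 381 CPM. RNF25 KO libraries held 481, 313 and 454 CPM, and eS31 K113R libraries 479, 358 and 392 CPM. Both lines overlapped AAVS1. Neither difference passed without the replicate block (0.49 ± 0.17 in RNF25 KO, adjusted p = 0.207 by edgeR, and 0.47 ± 0.17 in eS31 K113R, 0.187). With the block both passed, at 0.50 ± 0.14 (0.0396) and 0.49 ± 0.14 (0.0324). In replicate 2 FTH1 was the lowest of 3 libraries in 11 of 15 groups, which is the shared deviation the block removes. In all conditions, 7 of 9 RNF25 KO libraries and 4 of 6 eS31 K113R libraries were above the highest AAVS1 library. Pseudogene copies held few counts beside their genes, 0.612% for FTL over 14 copies and 2.24% for FTH1 over 25 copies.

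TXNRD1 codes for cytosolic thioredoxin reductase, which keeps thioredoxin reduced with electrons from NADPH, and lies at chr12:104215779-104350305 on the plus strand. Untreated AAVS1 libraries held 20.7, 46.4 and 16.1 CPM. In eS31 K113R the values were 51.2, 93.2 and 35.3 CPM. The groups overlapped, and the difference did not pass (log2 fold change 1.08 ± 0.52, adjusted p = 0.404 by edgeR). Within each replicate number eS31 K113R was the higher, and with the replicate block the difference passed (1.09 ± 0.33, adjusted p = 0.0459 by edgeR). The block thus raised the number of the 10 genes called in eS31 K113R from 2 to 4. The SE of TXNRD1 fell with it, and the share of all tested genes called in the blocked fit is not given here. Nothing particular to the 10 genes is read from that count. Without AAVS1 replicate 2 the TXNRD1 difference was 1.73 ± 0.61 (0.17). RNF25 KO libraries held 46.7, 65.9 and 29.3 CPM (0.73 ± 0.53, 0.741), and none of the other lines passed. TXNRD1 was the gene in which libraries differed most by number, as replicate 2 was the highest in 11 of 15 groups and replicate 3 the lowest in 13 of 15. Its pooled SD within groups, 0.73 on the log2 scale, was larger than the SD of its 15 group means, 0.41.

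PRDX1 codes for a peroxiredoxin that thioredoxin reduces, and lies at chr1:45511036-45523047 on the minus strand, with 24.9% of its exon length under opposite-strand exons. Its level ranged over the untreated lines from 832 ± 25.9 CPM in GCN2 KO to 952 ± 81.9 CPM in AAVS1 (mean ± SD, 3 libraries), and no line differed from AAVS1 past the threshold. A pseudogene copy held 2.46% as many counts. TALDO1 (chr11:747329-765024, plus strand) and PGD (chr1:10398592-10420144, plus strand) code for transaldolase and 6-phosphogluconate dehydrogenase, enzymes of the pentose phosphate pathway that supplies NADPH. TALDO1 ranged from 172 ± 24.8 CPM in eS31 K113R to 202 ± 4.81 CPM in the DKO, and PGD from 60.0 ± 27.4 CPM in AAVS1, where replicate 2 stood at 28.4 CPM, to 71.8 ± 4.46 CPM in eS31 K113R. The spread of their 15 group means, 0.12 and 0.16 on the log2 scale, was below their spread within groups, 0.19 and 0.27.

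HMOX1 codes for inducible haem oxygenase (chr22:35380361-35394214, plus strand) and OSGIN1 for an oxidative-stress-induced growth inhibitor. HMOX1 summed to 19 counts in untreated AAVS1 and 12 to 28 counts in the other untreated lines, and every ratio to AAVS1 had a 95% exact binomial interval that held 1. The largest ratio was in eS31 K113R, at 1.64 (0.882 to 3.10). OSGIN1 summed to 3 counts in untreated AAVS1 and 2 in GCN2 KO, but 17 in RNF25 KO, 18 in the DKO, 18 in ZNF598 KO and 22 in eS31 K113R. In eS31 K113R the ratio was 8.14 (95% exact binomial interval 2.45 to 42.5), and in RNF25 KO 6.01 (1.74 to 32.0). These intervals cover counting error only. Every ratio rests on the same 3 counts in untreated AAVS1, and it was 5.50 in the DKO, 5.52 in ZNF598 KO and 0.837 in GCN2 KO. Across libraries the OSGIN1 differences of eS31 K113R and RNF25 KO did not pass (adjusted p = 0.228 and 0.447 by edgeR). Of the 3 RNF25 KO libraries, 1 had no OSGIN1 count.

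AzaC called 0 of the 10 genes in any of the 6 lines by edgeR, DESeq2 or limma-voom, and the smallest adjusted p was 0.463. Of all tested genes 0.117% passed in AAVS1, 0.469% in RNF25 KO, 0.117% in ZNF598 KO and 0.515% in eS31 K113R, with 0 in GCN2 KO and the DKO. An unadjusted p under 0.05 was reached by 535 of the 11078 tested genes in AAVS1 and by 1031 in RNF25 KO. Of the 10 genes, 1 reached it in AAVS1 and 1 in RNF25 KO. In AAVS1 the gene was OSGIN1, with 3 counts untreated and 19 with azaC, a ratio of 6.20 (95% exact binomial interval 1.83 to 32.7, counting error only). This ratio shares its 3 untreated AAVS1 counts with the ratios of the lines. Against the same 3 counts GCN2 KO with azaC was at 4.57 (1.28 to 24.8). In RNF25 KO it was ME1, at 30.4, 17.3 and 18.4 CPM with azaC against 8.05, 20.5 and 8.72 CPM untreated, which overlapped (0.77 ± 0.34, adjusted p = 0.463 by edgeR). OSGIN1 reached its highest level in RNF25 KO cells with azaC, at 2.22, 14.8 and 13.3 CPM, with overlap of the untreated values of 8.05, 4.35 and 0 CPM. The value of 14.8 CPM was in replicate 2, the library apart in GC content, which also had the highest PRDX1, FTH1 and TALDO1 of all 45.

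HF, which activates GCN2, changed 1 of the 10 genes past the threshold, PRDX1. In AAVS1 1 of the 10 genes passed, against 1.54% of all tested genes, in RNF25 KO 1, against 1.73%, and in GCN2 KO 0 by edgeR, DESeq2 and limma-voom, against 1.24%, with 0 at an unadjusted p under 0.05. Of the 11078 tested genes, 1086 had an unadjusted p under 0.05 in GCN2 KO. In AAVS1 PRDX1 went from 861, 974 and 1020 CPM untreated to 490, 562 and 710 CPM with HF. In RNF25 KO it went from 877, 792 and 836 to 521, 426 and 616 CPM. In neither line did treated and untreated libraries overlap. PRDX1 was 1.62-fold lower with HF in AAVS1 (log2 fold change -0.70 ± 0.15, adjusted p = 0.00502 by edgeR) and 1.60-fold lower in RNF25 KO (-0.68 ± 0.15, 0.00614).

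In GCN2 KO PRDX1 stood at 735, 645 and 911 CPM with HF and at 856, 804 and 834 CPM untreated, which overlapped (-0.12 ± 0.15, adjusted p = 0.89 by edgeR). The difference between the HF responses of GCN2 KO and AAVS1 was 0.57 ± 0.22 on the log2 scale, with an unadjusted p of 0.0107 and an adjusted p of 0.478 by edgeR, so a difference between the lines was not shown. Of the other genes, ME1 in RNF25 KO stood between 8.45 and 24.1 CPM with HF, which overlapped the untreated values (0.58 ± 0.35, adjusted p = 0.599 by edgeR). OSGIN1 in AAVS1 had 16 counts with HF against the same 3 untreated, a ratio of 5.23 (95% exact binomial interval 1.50 to 28.0, counting error only), and did not pass (adjusted p = 0.492 by edgeR). The fall in AAVS1 lost its call without HF replicate 1 (-0.58, adjusted p = 0.112 by edgeR). In RNF25 KO it did so without HF replicate 2 (-0.55, 0.12) and without untreated replicate 1 (-0.64, 0.0503). In fits of only the 2 groups compared, neither passed (0.265 and 0.0649).

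The HF libraries also had less PRDX1 than azaC libraries of the same line. With azaC AAVS1 held 892, 914 and 880 CPM and RNF25 KO 855, 1299 and 803 CPM, all above the HF values. AzaC against HF, 1 of the 10 genes passed in AAVS1 (0.61 ± 0.15, adjusted p = 0.0348 by edgeR), against 0.993% of all tested genes, and 1 in RNF25 KO (0.92 ± 0.15, 0.000879), against 0.731%. In RNF25 KO the value without azaC replicate 2, the library with 1299 CPM, was 0.67 (0.0449), and without HF replicate 2 it was 0.80 (0.0518). In AAVS1 the call was lost without any 1 of 5 of the 6 libraries, with adjusted p-values of 0.111 to 0.325. In GCN2 KO 0 of the 10 passed in edgeR, DESeq2 and limma-voom, against 1.07%, with 0 at an unadjusted p under 0.05. There 1234 of the 11078 tested genes had an unadjusted p under 0.05. Doses differed between the drugs, which act on different targets, so these values are set side by side for the doses used.

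No response of the 10 genes to azaC or HF differed between AAVS1 and another line past the threshold, by edgeR, DESeq2 or limma-voom, in 7 such tests. Over all tested genes 0 passed in the azaC tests of RNF25 KO and ZNF598 KO, 0.00903% in those of GCN2 KO and eS31 K113R and 0.0451% in that of the DKO. In the HF tests 0 passed in RNF25 KO and 0.334% in GCN2 KO. An unadjusted p under 0.05 was reached by ME1 in RNF25 KO (1.05 ± 0.44) and PGD in the DKO (-0.65 ± 0.31) for azaC, and by PRDX1 in GCN2 KO for HF. Of the 11078 tested genes, 305, 369 and 797 reached it in those comparisons, in that order.

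**Figure D4:**
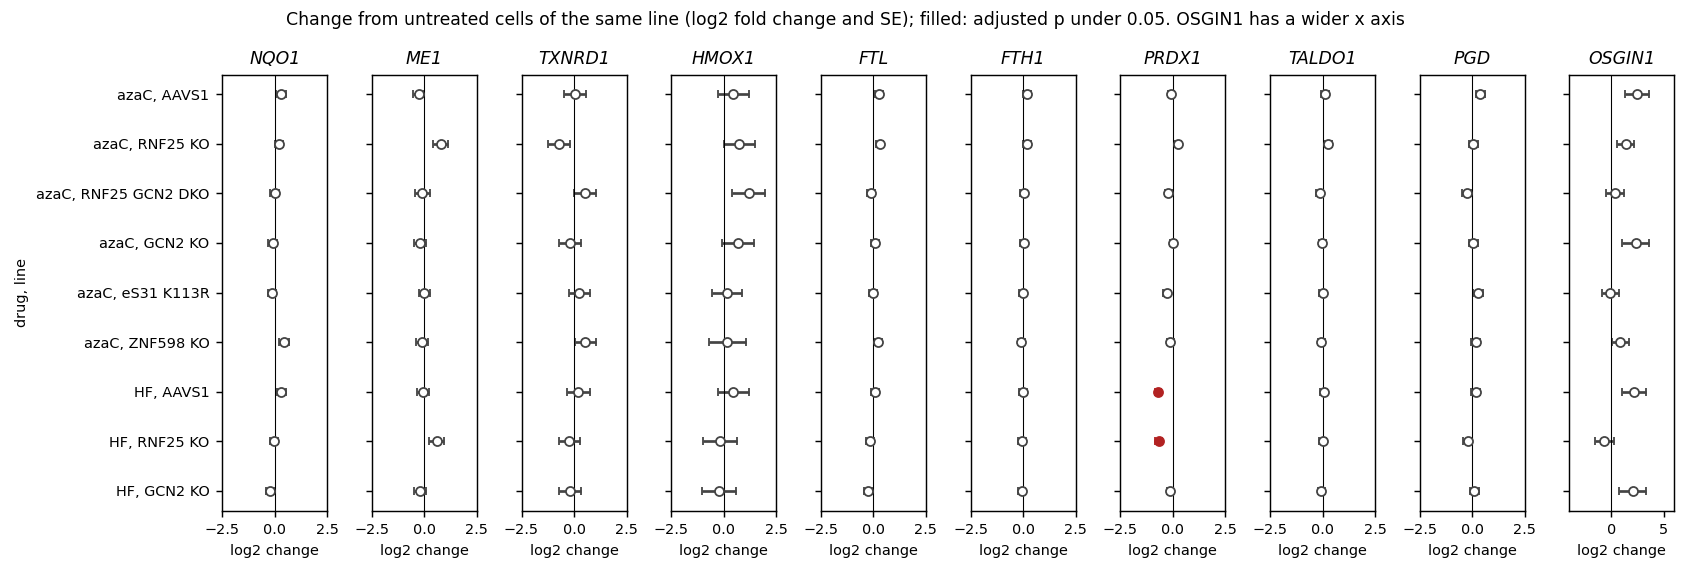
Log2 fold change of each gene from untreated cells of the same line after azaC (6 lines) or HF (3 lines), with SE. Filled points passed at an adjusted p under 0.05, which only PRDX1 did, with HF in AAVS1 and RNF25 KO, and OSGIN1 is drawn on a wider axis.

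Other genes of the pathway were taken from 7 lists with 108 genes, of which 83 were tested: NRF2 control, glutathione, thioredoxin and peroxiredoxin, NADPH supply, quinone, aldehyde and drug metabolism, haem and iron, and superoxide and peroxide removal. In RNF25 KO 2 of 83 were higher and 0 lower, against 1.62% of all tested genes called in either direction. In the DKO 2 were higher and 0 lower, against 1.42%, in GCN2 KO 1 and 1, against 1.05%, in ZNF598 KO 2 and 0, against 0.93%, and in eS31 K113R 1 and 2, against 2.87%. With 2 or 3 genes called in each, nothing particular to the lists is read from these counts. The medians of the 83 were 0.10, -0.01, -0.09, -0.04 and -0.02 on the log2 scale in that order.

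MGST2, a microsomal glutathione transferase, was higher in RNF25 KO (0.93 ± 0.21, adjusted p = 0.00531 by edgeR) and the DKO (0.84 ± 0.21, 0.0183). EPHX1, microsomal epoxide hydrolase, was higher in RNF25 KO (2.65 ± 0.65, 0.0155), at 13.7, 6.22 and 9.97 CPM against 1.72, 0.998 and 1.93 CPM. PRDX4, a peroxiredoxin of the endoplasmic reticulum, was lower in GCN2 KO (-0.86 ± 0.15, 0.000532) and eS31 K113R (-1.29 ± 0.16, 1.53e-07). GSTA4, a glutathione transferase, was lower in eS31 K113R (-0.92 ± 0.25, 0.0259), and MSRA, a methionine sulfoxide reductase, was higher in ZNF598 KO (1.97 ± 0.47, 0.0223). BACH2, a relative of the NRF2 competitor BACH1, passed in GCN2 KO, the DKO, ZNF598 KO and eS31 K113R. It had 1 count in untreated AAVS1 against 18 to 21 in those lines, and in eS31 K113R the ratio was 21.1 (95% exact binomial interval 3.35 to 877, counting error only). RNF25 KO, where BACH2 did not pass, had 7 counts, a ratio of 7.42 (0.953 to 334). Every BACH2 ratio rests on the same 1 count in AAVS1.

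Between edited lines, some list genes passed that did not do so against AAVS1. GSTO1, a glutathione transferase of the omega class, was higher than in eS31 K113R in RNF25 KO (0.91 ± 0.19, adjusted p = 0.00206 by edgeR), ZNF598 KO (0.72 ± 0.19, 0.0246) and the DKO (0.69 ± 0.19, 0.0313). UGDH, which makes the UDP-glucuronate used in drug conjugation, was higher than in ZNF598 KO in RNF25 KO (1.02 ± 0.23, 0.00657) and the DKO (1.07 ± 0.23, 0.00373). MTHFD2 was lower than in eS31 K113R in the DKO (-0.53 ± 0.15, 0.0378) and ZNF598 KO (-0.56 ± 0.15, 0.0275). The remaining calls in these pairs were of MGST2, PRDX4 and SLC7A11.

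The NRF2 targets GCLM, TXN, GSR and SLC7A11 did not pass in any untreated line against AAVS1. GCLM, the modifier subunit of glutathione synthesis, was at 0.34 ± 0.39 on the log2 scale in RNF25 KO, 0.69 ± 0.39 in GCN2 KO, 0.36 ± 0.39 in the DKO, 0.01 ± 0.39 in ZNF598 KO and 0.37 ± 0.39 in eS31 K113R. TXN, thioredoxin, lay between -0.25 and 0.17, and GSR, glutathione reductase, between -0.29 and 0.14. SLC7A11, the cystine transporter, was highest in eS31 K113R (0.81 ± 0.24, adjusted p = 0.0553 by edgeR). It did pass against 2 other edited lines, as RNF25 KO was at -0.91 ± 0.25 (0.0208) and ZNF598 KO at -0.96 ± 0.24 (0.0153) relative to eS31 K113R. TFRC, the transferrin receptor, lay between -0.44 and -0.07 against AAVS1. SRXN1, sulfiredoxin, had 0 counts in all 45 libraries and was not tested. NFE2L2 and KEAP1, named here outside the naming rule because they code for NRF2 and its repressor, passed in 0 of 34 comparisons, with smallest adjusted p-values of 0.134 and 0.0591 by edgeR. The largest untreated difference of the 2 was KEAP1 in eS31 K113R, at 95.7 ± 21.2 CPM against 59.7 ± 4.64 CPM in AAVS1 (0.68 ± 0.22, adjusted p = 0.103 by edgeR).

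With the drugs, the genes of these lists that rose included SLC7A11, CHAC1, a glutathione-degrading enzyme, SLC3A2, the partner chain of the cystine transporter, and MTHFD2, an enzyme of mitochondrial folate metabolism, all of which are known also as targets of the integrated stress response. SLC7A11 rose with azaC in RNF25 KO (1.73 ± 0.24, adjusted p = 5.18e-06 by edgeR) and eS31 K113R (1.63 ± 0.23, 5.25e-06), and with HF in AAVS1 (2.62 ± 0.24, 6.64e-11) and RNF25 KO (2.64 ± 0.24, 1.06e-10). CHAC1, SLC3A2, MTHFD2 and TXNIP, an inhibitor of thioredoxin, rose in the same 4 comparisons. With azaC 5 of 83 rose in RNF25 KO, against 0.469% of all tested genes called in either direction, and 5 in eS31 K113R, against 0.515%. CHAC1 alone, 1 of 83, rose in AAVS1 and in ZNF598 KO, against 0.117% in each, with none lower in these lines and none called in GCN2 KO or the DKO. With HF 5 rose and 2 fell in AAVS1, against 1.54% of all tested genes, 6 rose and 1 fell in RNF25 KO, against 1.73%, and 2 rose (SLC3A2 and TXNIP) and 2 fell in GCN2 KO, against 1.24%. The sixth riser in RNF25 KO was NFE2L1 (0.78 ± 0.19, 0.0156), a relative of NRF2, and the fallers other than TFRC were RBX1 in AAVS1 (-0.60 ± 0.16, 0.0428) and HMOX2, constitutive haem oxygenase, in GCN2 KO (-0.81 ± 0.22, 0.0485). TFRC fell with HF in all 3 lines, where it decreased by 1.30 ± 0.27 on the log2 scale in AAVS1 (0.00243), decreased by 1.50 ± 0.28 in RNF25 KO (0.00053) and decreased by 1.01 ± 0.27 in GCN2 KO (0.0487). The HF response of GCN2 KO was lower than that of AAVS1 for SLC7A11 (-2.57 ± 0.33, 1.64e-06), CHAC1 (-5.91 ± 1.15, 0.0029) and MTHFD2 (-0.97 ± 0.21, 0.014), and the azaC response of the DKO for CHAC1 (-5.51 ± 0.99, 0.00581). AzaC against HF, SLC7A11 was lower in AAVS1 (-1.99 ± 0.23, 1.66e-07) and RNF25 KO (-0.92 ± 0.22, 0.0303), and TFRC higher (1.02 ± 0.27, 0.0498, and 1.17 ± 0.28, 0.0281). Also lower with azaC than with HF were MTHFD2 in both lines, NFE2L1 and SLC3A2 in AAVS1 and TXNIP in GCN2 KO, and HMOX2 was higher in RNF25 KO and GCN2 KO. NQO1 in the comparisons of HF with untreated cells was at 0.32 ± 0.22, -0.04 ± 0.20 and -0.22 ± 0.21, none past the threshold.

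Likeness between genes was described over the 15 group means of log2 CPM, which share libraries and 6 lines, so that genes fixed by line look alike. The genes most like NQO1 were CNTNAP2 (Pearson's r = 0.96, chromosome 7), LIMCH1 (0.94, chromosome 4) and CARMIL2 (0.91, chromosome 16, as NQO1). Those most like ME1 were AC093323.1 (0.97, chromosome 4), BMPR1B (0.96, chromosome 4) and HOXC6 (0.96, chromosome 12). FTL was most like KPTN (0.83), IFT43 (0.83) and GAPDH (0.82). TXNRD1 was most like SCLT1, ZNF644 and YBX1 (each 0.85), HMOX1 like MTPAP (0.83), IFT43 (0.83) and SNX5 (0.80), and OSGIN1 like GAA (0.90), CUEDC2 (0.89) and ARRDC2 (0.87). FTH1, PRDX1, TALDO1 and PGD, whose group means varied less, were not ranked in this way. Between the 10, r over the 15 means was 0.89 for NQO1 and FTH1, 0.76 for FTL and FTH1, 0.69 for NQO1 and FTL, and -0.42 for NQO1 and ME1.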

How the data were processed

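Counts per gene were deposited by the authors as raw values for 45 libraries. Per the labels' protocols, RNA came from a Maxwell RSC kit and polyA libraries from CORALL mRNA-Seq V2. STAR 2.7.10b, HTSeq 0.9.1 and GRCh38 are named in the submitters' processing notes. The sources used here give no annotation release, no strand setting and nothing on molecular identifiers. Without the strand setting, the reads of overlapping antisense genes may not have been told apart. Library totals are given with the results, and the low depth limits HMOX1 and OSGIN1 most.

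In R 4.3.3, edgeR 4.0.16 filtered genes (filterByExpr, minimum count 10, which left 11078), scaled libraries by TMM and fitted a quasi-likelihood model with 15 group means and 30 residual degrees of freedom to all 45 libraries. Two-sided p-values had the Benjamini-Hochberg adjustment over all tested genes of each comparison, with a threshold of 0.05. SE is the absolute log2 fold change over the square root of F, and log2 CPM per library used a prior count of 2. The scripts were tested on simulated data. Positions, exon lengths and overlaps are from GENCODE v29 on GRCh38, and promoter sequences are from RefSeq. All 24 comparisons, a test of any difference among untreated lines and the 10 pairs of untreated edited lines were also run with DESeq2 1.42.0, limma-voom (limma 3.58.1) and other settings, and without each library in turn.

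The deviations of libraries with the same replicate number from their group means correlated over 0.1 for every number in 15 of 15 pairs of untreated groups (0.113 to 0.463), so the numbers were taken to pair untreated libraries, and blocked values are given where they change a call. The pairing comes from the data and not from the labels. The blocked fit held all 45 libraries, treated ones included. Over all 105 pairs of groups, the correlation was over 0.1 for every number in 41, and the lowest was -0.247. No within-group pair was a copy of another (chi-square per degree of freedom 3.00 or more in 45 pairs). No per-sample column was left unused. Of the counts, 0.0286% fell on entries without a symbol.

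The 10 genes, the pathway and marker lists and the tests were chosen with earlier results of these data known. By rule, all 10 were named, with the list genes that passed, SLC7A11, GCLM, SRXN1, TXN, GSR and TFRC, and the 3 genes most like each of the 10 whose group means had an SD over 0.3. A further gene of that rule is not reported here.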

Additional observations from a re-analysis of the deposited data

How the results depend on the processing

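No result changed direction in a called value. The calls of NQO1 in RNF25 KO and eS31 K113R and of ME1 in RNF25 KO and the DKO against AAVS1 held in every alternative run. Fitting only the groups compared, which leaves few residual degrees of freedom, changed the number of the 10 genes called to 0 in GCN2 KO, 1 in the DKO and 1 in eS31 K113R against AAVS1, to 0 for HF in AAVS1 and in RNF25 KO, and to 0 for azaC against HF in both lines. Without a filter on low counts azaC against HF in AAVS1 had 0 called, and TXNRD1 passed in eS31 K113R (1.08, adjusted p = 0.0143 by edgeR). Leaving out 1 library gave 1 to 3 genes called in eS31 K113R, 2 to 3 in RNF25 KO, 0 to 1 for HF in AAVS1 and in RNF25 KO, and 0 to 1 for azaC against HF in both lines. The 13 calls in the 10 pairs of edited lines became 11 to 13. Without AAVS1 untreated replicate 3, FTH1 passed in RNF25 KO (0.73, 0.0321) and eS31 K113R (0.71, 0.0292). With GC-corrected offsets FTL was higher in RNF25 KO than in ZNF598 KO (0.64, 0.0175). The replicate block gave 4 called in eS31 K113R and 3 in RNF25 KO and changed no call other than those of FTH1, TXNRD1 and FTL given with the results. The shares of all tested genes called under these settings are not given here. A change in the 10 genes therefore cannot be told apart from a general gain or loss of calls. With other scalings the median log2 fold change of all genes lay between -0.07 and 0.07 in every comparison. In the main fit it lay between -0.02 and 0.02. Apart from the changes given, the causes of which were not tested, depth limits what can be said of HMOX1 and OSGIN1.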
